A study of Mus musculus with 6 samples.

Results

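The oxysterol-binding protein family was examined in the prefrontal cortex (PFC) of control and early-life-stressed (ELS) mice through 10 genes, Osbp, Osbpl1a, Osbpl2, Osbpl3, Osbpl5, Osbpl6, Osbpl8, Osbpl9, Osbpl10 and Osbpl11. The members were taken by gene symbol from the 22000 symbols of the count table, and all 10 were among the 13185 genes expressed highly enough to be tested. The family was assembled around Osbpl3, which had drawn attention by its difference between ELS and control mice. The values of Osbpl3 in that comparison are therefore given as a description without a p-value.

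RNA was sequenced from the PFC of 6 male C57BL/6N mice at 9 weeks of age, 3 control mice and 3 ELS mice. ELS was social isolation: after weaning, ELS mice lived alone in cages closed with a filter cap, whereas control mice lived together without one. Litters contributed to both conditions, every mouse carried the wild-type genome, and behaviour was tested in both conditions before dissection, so the RNA of both groups was taken after testing. The samples were bulk tissue, in which fewer cells of a type and less RNA per cell cannot be told apart.

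Oxysterol-binding protein-related proteins (ORPs) are lipid transfer proteins that work where the endoplasmic reticulum (ER) touches another membrane. Many hold on to the ER through VAP proteins and exchange a sterol or phosphatidylserine for phosphatidylinositol 4-phosphate (PI4P), a lipid kept high on the target membrane by kinases and removed at the ER by the phosphatase Sac1. In neurons such contacts supply the plasma membrane, the Golgi and endosomes with lipids. Osbpl3 encodes ORP3, which acts at contacts between ER and plasma membrane and is tied to R-Ras and cell adhesion.

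The coding stretch that defines the family was located first, because it is what the members share in sequence. A run of 8 codons, or 24 bases, was translated identically in the longest coding sequences of all 12 family genes annotated in the mouse. It belongs to the ligand-binding domain, where it serves as the signature of the family. The stretches below come from GENCODE M21 on GRCm38 (mm10), are written 5′ to 3′ on the coding strand, and carry the 24 shared codon bases in capitals with 6 coding bases on each side. Those of Osbpl1a, Osbp2 and Osbpl7 are not reported here.
Osbpl3: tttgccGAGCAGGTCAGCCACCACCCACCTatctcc
Osbpl6: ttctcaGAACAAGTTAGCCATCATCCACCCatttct
Osbp: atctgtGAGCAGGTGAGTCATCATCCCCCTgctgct
Osbpl2: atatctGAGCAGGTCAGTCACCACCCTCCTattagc
Osbpl5: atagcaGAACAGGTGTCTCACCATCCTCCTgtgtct
Osbpl8: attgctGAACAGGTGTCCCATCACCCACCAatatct
Osbpl9: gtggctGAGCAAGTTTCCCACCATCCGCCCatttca
Osbpl10: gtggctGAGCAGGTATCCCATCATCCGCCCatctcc
Osbpl11: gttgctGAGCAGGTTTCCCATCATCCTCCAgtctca
The nucleotide sequences had diverged although the translated run had not: the stretch of Osbpl2 differed from that of Osbpl3 at 2 of 24 bases, and those of Osbpl5, Osbpl9, Osbpl10 and Osbpl11 differed at 7. The run lay across the junction of exons 15 and 16 of Osbpl3, at chr6:50312672-50320048 (minus strand, the intron included), and across that of exons 20 and 21 of Osbpl6, at chr2:76586240-76586738 (plus strand). In Osbpl2 and Osbpl10 it lay within 1 exon, at chr2:180148448-180148483 and chr9:115216888-115216923 (plus strand). Over whole translated coding sequences, Osbpl3 was closest to Osbpl6, with 59.73% identity over 879 aligned codons. Its identity to Osbpl7, a family gene outside the member list, was 53.73%, and to the other family genes it ran from 23.88% to 42.39%. The other close pairs were Osbpl1a with Osbpl2 at 69.64%, Osbp with Osbp2 at 60.53%, Osbpl5 with Osbpl8 at 57.83% and Osbpl10 with Osbpl11 at 57.26%. No stretch of 50 bases was shared between the transcripts of any 2 family genes, and Osbpl3 and Osbpl6 shared no 50-base stretch with any other annotated gene.

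Raw read counts per gene were scaled to CPM, a gene's counts as parts of the library total, with TMM factors, which adjust each library for its composition. Library totals ran from 28405795 to 35241743 counts, with the 3 ELS libraries the deepest. TMM factors lay between 0.992 and 1.02. Member counts in single mice ran from 558 to 18964, so that counting alone contributed a coefficient of variation of 0.763% to 3.91%. Excitatory neuron markers summed to 5404 to 6020 CPM in control mice and 5098 to 5968 CPM in ELS mice, and the choroid plexus markers Ttr and Folr1 stayed under 1 CPM in every mouse. The libraries labelled Control 3 and ELS 1 held the most striatal marker RNA (335 and 310 CPM over 5 genes, against 183 to 227 CPM in the other mice), and also the most oligodendrocyte and blood marker RNA. Excitatory neuron marker RNA was lowest in the same libraries, at 5404 and 5098 CPM against 5752 to 6020 CPM in the other mice. In the edgeR fit no gene on any marker list passed the test between the groups.

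The level of each member was compared per length, as CPM per kilobase of annotated exon, averaged over the 6 mice. Osbpl1a, whose protein ORP1 positions late endosomes and carries cholesterol from them, was the most abundant at 70.4 CPM per kb. Osbpl8 followed at 17.2, Osbp at 15.4 and Osbpl2 at 15.1 CPM per kb. A lower tier held Osbpl9 at 6.54, Osbpl6 at 6.13, Osbpl5 at 6.10 and Osbpl10 at 5.90 CPM per kb. Osbpl11 at 4.08 and Osbpl3 at 3.95 CPM per kb closed this order of the means over both groups, which spanned 17.8-fold. Within the groups the lower places differed. Osbpl3 was above Osbpl11 in control mice (4.55 ± 0.408 and 4.03 ± 0.291 CPM per kb) and below it in ELS mice (3.35 ± 0.271 and 4.14 ± 0.548; SD, n = 3 each). From Osbpl9 to Osbpl10 the order of the means was Osbpl6, Osbpl9, Osbpl5 and Osbpl10 in control mice and Osbpl9, Osbpl10, Osbpl5 and Osbpl6 in ELS mice. Of the family genes outside the member list, Osbp2 stood at 15.2 and Osbpl7 at 1.78 CPM per kb. Osbpl1a alone made up 46.7% of the summed level of the members, whereas Osbpl3 contributed 2.96% ± 0.273 in control mice and 2.27% ± 0.177 in ELS mice (SD, n = 3 each).

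Neighbours in this order were compared within each mouse by an exact two-sided sign-flip permutation test, whose smallest possible p with 6 mice is 0.03125. In 4 of the 9 neighbour pairs the gene with the higher mean was the higher in every mouse (p = 0.03125 by the exact permutation test, adjusted p = 0.0703 over the 9 pairs). These were Osbpl1a over Osbpl8 by 4.10-fold, Osbpl2 over Osbpl9 by 2.32-fold, Osbpl10 over Osbpl11 by 1.45-fold and Osbpl8 over Osbp by 1.12-fold. No pair passed the adjusted threshold of 0.05. With so few mice that threshold could be passed only if most pairs had the smallest p, so it cannot judge a single pair. The order that set the pairs came from the same values. The ranges of 6 pairs overlapped, and Osbpl11 was above Osbpl3 in 3 of 6 mice, the 3 ELS mice. With the length of the longest transcript in place of all exons, 4 of the 9 pairs changed order (Osbp with Osbpl2, Osbpl6 with Osbpl5, Osbpl5 with Osbpl10, and Osbpl11 with Osbpl3), and Osbpl1a remained the highest at 139 CPM per kb. Osbpl2 then stood at 22.6 CPM per kb, above Osbpl8 at 22.5 and Osbp at 15.4, so that below Osbpl1a the order also depended on the transcript model.

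**Figure D1:**
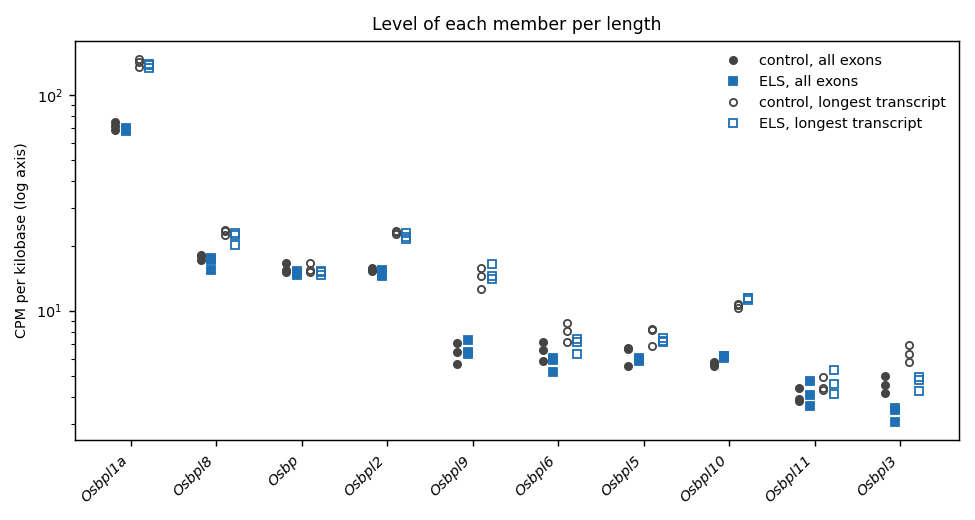
Level of each member in CPM per kilobase on a log axis, with filled symbols for the length of all exons and open symbols for the longest transcript, circles for control mice and squares for ELS mice. Osbpl1a lies above all others at both lengths, and by exon length Osbpl3 is lowest in ELS mice (mean 3.35 CPM per kb) and Osbpl11 in control mice (4.03).

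The comparison of ELS with control mice asked which transcripts of the PFC differ after isolation. Osbpl3 (chr6:50293330-50456201, minus strand, GRCm38) was measured at 40.9, 44.8 and 37.5 CPM in control mice 1 to 3 and at 27.4, 32.1 and 31.1 CPM in ELS mice 1 to 3. Every ELS mouse lay below every control mouse. The means were 41.1 ± 3.68 CPM and 30.2 ± 2.44 CPM (SD, n = 3 each), a change of -26.4% in ELS mice, or a log2 fold change of -0.44 (SE 0.0883). The raw counts were 1260, 1266 and 1073 in control mice and 915, 1121 and 1004 in ELS mice, so the raw counts overlapped between the groups and the separation appeared once the deeper ELS libraries were scaled. Among the 13185 genes tested, 0.66% had a lower log2 fold change than Osbpl3.

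Osbpl6 encodes ORP6, the member closest to ORP3 in sequence. Its level was 66.4, 72.4 and 59.0 CPM in control mice and 52.2, 60.7 and 59.3 CPM in ELS mice. The lowest value was that of ELS mouse 1, and the groups overlapped because control mouse 3 lay just below ELS mice 2 and 3. The log2 fold change was -0.20 (SE 0.0872, 95% interval -0.39 to -0.01), with adjusted p = 0.99998 by edgeR's quasi-likelihood test over all genes tested.

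Osbp and Osbpl2 are among the members that act at Golgi and lysosomal or plasma membranes. Osbp, the founding member, which carries cholesterol to the Golgi against PI4P, was at 74.6, 67.5 and 69.5 CPM in control mice and 68.1, 65.4 and 68.8 CPM in ELS mice. Osbpl2 was at 64.7, 65.8 and 63.6 CPM in control mice and 64.4, 60.4 and 61.2 CPM in ELS mice. Both pairs of groups overlapped, and the log2 fold changes were -0.07 (95% interval -0.21 to 0.08) for Osbp and -0.06 (-0.20 to 0.08) for Osbpl2.

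Osbpl1a was at 534, 560 and 580 CPM in control mice and 528, 542 and 547 CPM in ELS mice, a log2 fold change of -0.05 (95% interval -0.18 to 0.09). The 2 groups overlapped. Of its exon bases, 11.0% overlap an annotated gene on the opposite strand. The strand setting of the counting is not given in the sources used here, so reads of the overlap could not be assigned to one strand.

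Osbpl5 and Osbpl8 encode ORP5 and ORP8, which are anchored in the ER membrane and carry phosphatidylserine to the plasma membrane in exchange for PI4P. Osbpl5 was at 32.5, 32.8 and 27.3 CPM in control mice and 28.6, 29.0 and 29.8 CPM in ELS mice. Osbpl8 was at 170, 162 and 168 CPM in control mice and 165, 161 and 145 CPM in ELS mice. In both genes 1 mouse was the low one, control mouse 3 for Osbpl5 and ELS mouse 3 for Osbpl8, and the groups overlapped. Their log2 fold changes were each -0.09, with 95% intervals of -0.27 to 0.10 for Osbpl5 and -0.24 to 0.06 for Osbpl8.

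Osbpl9, Osbpl10 and Osbpl11 encode proteins of Golgi and endosomal contacts, where ORP9 pairs with ORP10 or ORP11. Osbpl9 was at 45.1, 39.5 and 49.5 CPM in control mice and 51.5, 45.2 and 44.1 CPM in ELS mice (log2 fold change 0.07, 95% interval -0.13 to 0.27). Its groups overlapped, and 9.04% of its exon bases overlap Nrd1 on the opposite strand. Osbpl11 was at 22.2, 19.9 and 19.5 CPM in control mice and 18.5, 20.6 and 24.0 CPM in ELS mice (log2 fold change 0.04, 95% interval -0.19 to 0.26), with ELS mice at both ends of the range. Osbpl10 was at 29.8, 29.4 and 28.5 CPM in control mice and 31.8, 31.6 and 31.0 CPM in ELS mice. Every ELS mouse lay above every control mouse for Osbpl10, with means of 29.2 ± 0.661 and 31.5 ± 0.436 CPM (SD, n = 3 each). The log2 fold change of 0.11 (95% interval -0.05 to 0.26) did not pass the test, with adjusted p = 0.99998 by edgeR's quasi-likelihood test.

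**Figure D2:**
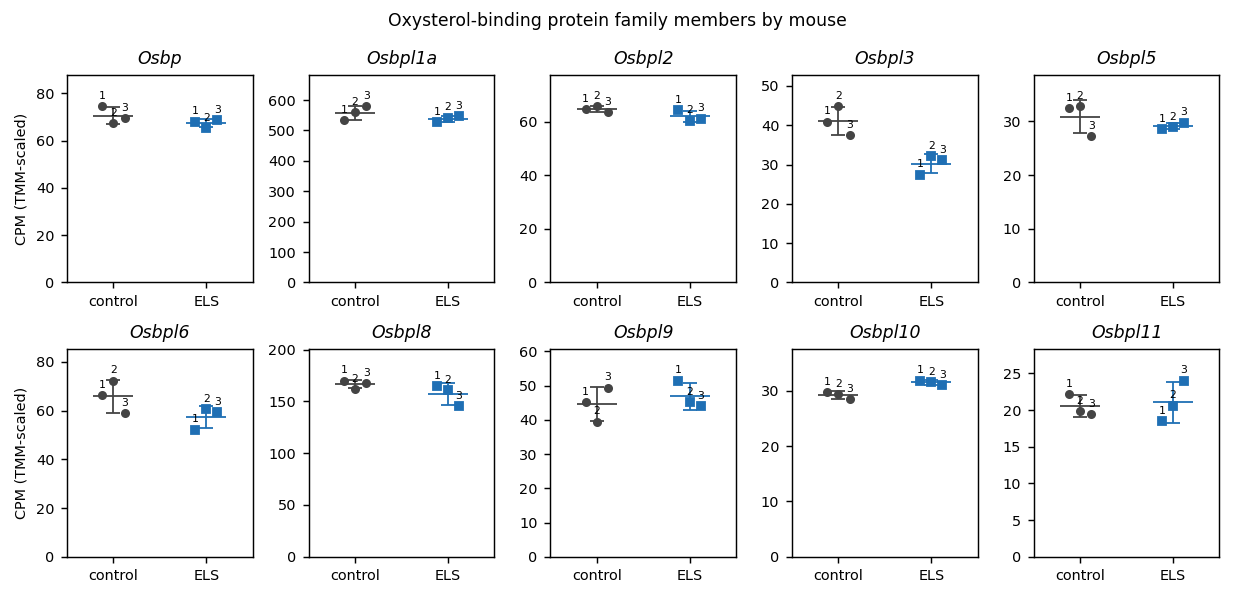
Level of each member in CPM (vertical axes start at 0), with circles for the 3 control mice, squares for the 3 ELS mice, mouse numbers beside the points, and bars for the mean and SD. The groups are apart for Osbpl3, from 37.5 CPM upward in control mice and up to 32.1 CPM in ELS mice, and for Osbpl10, and they overlap for the other 8 members.

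To be called different, a gene had to pass an adjusted p of 0.05 and to move by more than 0.3 on the log2 scale in either direction. By edgeR's quasi-likelihood test 0 of the 10 members were called, and 2 of all 13185 genes were (0.0152%). Of the 9 members other than Osbpl3, 1 (Osbpl6) reached an unadjusted p under 0.05, beside 4.23% of all genes. DESeq2 called 1 member, Osbpl3, among 18 genes (0.137%), edgeR's likelihood ratio test called the same member among 28 genes (0.212%), and limma-voom called 0 members among 2 genes. Without the library Control 3 the quasi-likelihood test also called Osbpl3, among 29 genes (0.219%). With the striatal marker sum as a covariate, an alternative chosen after seeing the data, it called Osbpl3 among 32 genes (0.243%), at a log2 fold change of -0.42. Since Osbpl3 was chosen from this contrast, these calls only describe how far the choice of test moves it.

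Among the 9 members other than Osbpl3, the groups did not overlap in 1, Osbpl10, with ELS above. Over all genes tested the groups did not overlap in 8.28% (4.47% with ELS below and 3.81% with ELS above). Nothing is read from the count, since the family was assembled around a gene of this contrast. Of the members, 7 had a log2 fold change below 0 and 3 above, with a median of -0.06, and 52.5% of all genes tested were below 0, with a median of -0.0046. Among the 9 members other than Osbpl3 the log2 fold changes ran from -0.20 to 0.11, and 7 were within 0.1 of 0. The 95% interval included 0 in 8 of these 9, and it stayed within 0.3 of 0 in 8. The adjusted p was 0.99998 for each of the 9. The summed level of the 10 members was 154 ± 0.906 CPM per kb in control mice and 148 ± 0.503 CPM per kb in ELS mice, a log2 ratio of -0.06, most of which came from members other than Osbpl3 since the ratio was -0.05 without it. All 4 excitatory neuron markers were also below 0, with a median log2 fold change of -0.06, whereas 1 of 6 microglia markers and 1 of 5 endothelial and mural markers were below 0, with medians of 0.06 and 0.10. Of the striatal markers 1 of 5 was below 0, with a median of 0.16, while 4 of 5 oligodendrocyte and 3 of 5 astrocyte markers were below 0, with medians of -0.03 and -0.01. None of these markers was called, and the part of cell composition in the family level was not tested.

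**Figure D3:**
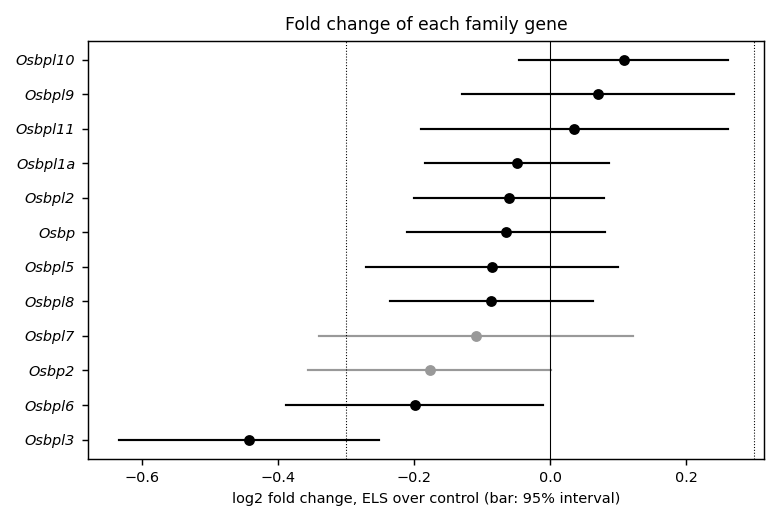
Log2 fold change of ELS over control for each family gene, with points for the estimate and bars for the 95% interval, black for members and grey for Osbp2 and Osbpl7, and dotted lines at an absolute log2 fold change of 0.3. The estimate for Osbpl3, the gene chosen for its value here, is -0.44 and those of the other members run from -0.20 to 0.11. The interval of Osbpl3 overlaps those of Osbpl6, Osbpl5, Osbp2 and Osbpl7.

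The family genes outside the member list gave further values. Osbp2, the closest relative of Osbp, was at 106, 106 and 95.4 CPM in control mice and 82.0, 100.4 and 89.6 CPM in ELS mice (log2 fold change -0.18). Osbpl7, the other relative of Osbpl3, was at 11.2, 11.2 and 10.3 CPM in control mice and 9.24, 10.8 and 10.3 CPM in ELS mice (log2 fold change -0.11). The groups overlapped for both genes, and neither passed the test (adjusted p = 0.99998 each, edgeR).

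Osbpl3 was also set against each other member within the same library, a ratio of counts that needs no scaling between libraries. All 9 ratios were lower in every ELS mouse than in every control mouse. Per 100 counts of Osbpl6, Osbpl3 had 61.6, 62.0 and 63.5 counts in control mice and 52.6, 52.8 and 52.5 in ELS mice. The means were 62.4 ± 1.02 and 52.6 ± 0.167 (SD, n = 3 each), so that within a group the ratio hardly varied although the level of both genes did. Per 100 counts of Osbpl9 the spread was far wider, with 90.7, 114 and 75.8 counts of Osbpl3 in control mice and 53.3, 70.9 and 70.7 in ELS mice. These ratios contain Osbpl3 and are a description.

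Members were then followed across the 6 mice after the mean of each group had been subtracted, which removes the difference between ELS and control mice. Over the 66 pairs among the 12 family genes, 3 pairs had a Pearson r above 0.9 and 3 below -0.9. Subtraction leaves few free values in 6 mice, where high r arises easily. The share over all gene pairs was not computed, so nothing is read from these counts. Osbpl3 and Osbpl6 had the highest, with r = 0.994 and a Spearman correlation of 0.943 (n = 6 mice). Control 3 lay 0.13 below its group mean for Osbpl3 and 0.16 below for Osbpl6 on the log2 scale, and ELS 1 lay 0.14 and 0.13 below. In the same mice Osbpl9 was high, at 0.15 above its group mean in Control 3 and 0.14 above in ELS 1, and its r was -0.969 with Osbpl3 and -0.970 with Osbpl6. The other pairs past 0.9 were Osbp2 with Osbpl7 (0.965), Osbpl3 with Osbpl7 (0.904) and Osbpl1a with Osbpl10 (-0.925).

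Without subtraction of the group means, r was 0.917 between Osbpl3 and Osbpl6 and -0.657 between Osbpl3 and Osbpl9. Without the 2 mice farthest from the median of Osbpl3, Control 2 and ELS 1, these became 0.683 and 0.430, so that the unsubtracted relation with Osbpl9 rested on those mice. After subtraction the 2 farthest mice were Control 3 and ELS 1, and without them r was 0.987 with Osbpl6 and -0.872 with Osbpl9 (n = 4 mice). The group means subtracted here were still those of all mice. Control 3 and ELS 1 therefore still shaped these values, which cannot show whether the relations hold without them. Each point shares its library, depth and dissection between the genes. Control 3 and ELS 1, the mice that were low in Osbpl3 and Osbpl6 and high in Osbpl9, were those with the most striatal, oligodendrocyte and blood marker RNA. They also had the least excitatory neuron marker RNA. The part of tissue composition in these correlations was not tested.

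**Figure D4:**
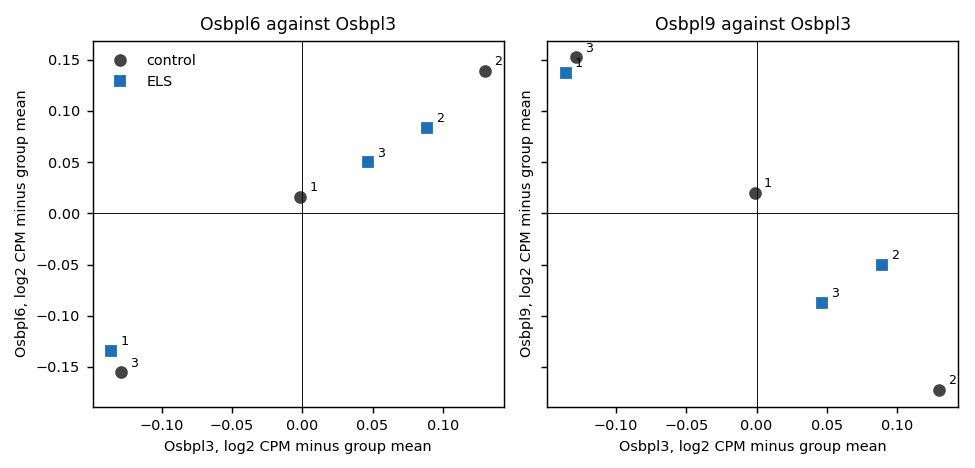
Deviation of each mouse from its group mean in log2 CPM, Osbpl3 on the horizontal axes and Osbpl6 (left) or Osbpl9 (right) on the vertical axes, with circles for control mice, squares for ELS mice and mouse numbers beside the points. Osbpl6 rises with Osbpl3 (r = 0.994) and Osbpl9 falls as Osbpl3 rises (r = -0.969), with Control 3 and ELS 1 at one end.

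Because these 3 genes moved together or oppositely across mice, the sequences before their annotated starts were read. They are upstream bases from RefSeq promoter windows on GRCm38.p6, cut where the GENCODE gene begins and written 5′ to 3′ on the strand of the gene, at chr6:50456202-50456420 (minus strand) for Osbpl3, chr2:76406258-76406507 (plus strand) for Osbpl6 and chr4:109202273-109202522 (minus strand) for Osbpl9. Capitals mark matches on either strand to the CRE half-site TGACG, the CCAAT box, the E-box CACGTG and the GC box GGGCGG, none of which overlap here.
Osbpl3: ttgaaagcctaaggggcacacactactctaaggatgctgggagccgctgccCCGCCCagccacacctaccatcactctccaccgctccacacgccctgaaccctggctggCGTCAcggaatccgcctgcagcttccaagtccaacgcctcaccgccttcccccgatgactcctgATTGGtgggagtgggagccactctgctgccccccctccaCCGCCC
Osbpl6: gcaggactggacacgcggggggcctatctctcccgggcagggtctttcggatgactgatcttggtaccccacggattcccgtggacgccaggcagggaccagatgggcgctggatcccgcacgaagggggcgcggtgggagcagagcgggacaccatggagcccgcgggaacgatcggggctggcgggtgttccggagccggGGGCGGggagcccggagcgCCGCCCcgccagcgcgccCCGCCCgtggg
Osbpl9: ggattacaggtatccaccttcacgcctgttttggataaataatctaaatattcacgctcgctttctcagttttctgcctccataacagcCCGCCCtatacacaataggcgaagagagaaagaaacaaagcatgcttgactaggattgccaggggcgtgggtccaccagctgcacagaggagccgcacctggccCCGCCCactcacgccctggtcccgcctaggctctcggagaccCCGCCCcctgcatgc
The 219 bases before Osbpl3 held 1 CRE half-site, 1 CCAAT box and 2 GC boxes, whereas the 250 bases before Osbpl6 and those before Osbpl9 each held 3 GC boxes and none of the other motifs. Osbpl6 and Osbpl9 each have 2 annotated promoter windows, of which only the outermost was read. The CACGTG letters were in none of the 3 windows. Over windows of 250 bases before 32851 annotated starts, a GC box was found in 32.7%, a CCAAT box in 33.8%, a CRE half-site in 17.8% and an E-box in 6.02%. Over windows of 219 bases the shares were 28.3%, 30.9%, 14.7% and 4.97%. The GC box, the motif common to the 3 genes, was thus also common among promoters in general, and a match of letters is not a bound site.

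The genes whose level across the 6 mice was most like that of Osbpl3 were ranked by Pearson r on log2 CPM, a measure that includes the difference between the groups. The 5 highest were Rhobtb2 (r = 0.989, and 0.984 after subtraction of group means), Gls2 (0.989 and 0.966), Letm2 (0.985 and 0.915), Mras (0.984 and 0.929) and Rassf2 (0.983 and 0.928). Of all genes ranked, 1.03% had r above 0.9, each with n = 6 mice that share libraries and dissections. Gls2 encodes a glutaminase, Letm2 a protein of the mitochondrial LETM1 family, Mras a small GTPase of the R-Ras subfamily and Rassf2 a Ras-association domain protein.

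The machinery around the family was described by 8 lists, of whose genes 62 of 66 in the table were expressed highly enough to be tested. By edgeR's quasi-likelihood test and by DESeq2, 0 of the 62 were called, beside 0.0152% of all genes in the former and 0.137% in the latter. An unadjusted p under 0.05 was reached by 4 (6.45%, beside 4.23% of all genes tested). Their median log2 fold change was -0.02, with 40 genes below 0 and 22 above, whereas 52.5% of all genes were below 0, with a median of -0.0046. The groups did not overlap in 4 genes with ELS below and 1 with ELS above, 8.06% in all against 8.28% of all genes tested. Every gene of the lists had an adjusted p of 0.99998.

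The ER anchors, VAP proteins and relatives that hold ORPs through a short peptide motif, ran from -0.08 for Mospd1 to 0.08 for Mospd3 on the log2 scale, 2 of 5 below 0. Vapa and Vapb, the anchors of most members, had log2 fold changes of 0.04 and 0.02. Of the 13 kinases and phosphatases that set PI4P and the lipid made from it, 12 were below 0, beside 52.5% of all genes tested. They ran from -0.15 for Inpp5e, a phosphatase of the primary cilium, to 0.12 for Pip5k1b, a kinase that acts on PI4P. Inpp5e was at 25.1, 25.7 and 23.6 CPM in control mice and 22.2, 23.4 and 21.6 CPM in ELS mice, with every ELS mouse below every control mouse.

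Among 9 tested genes of other sterol transfer, Gramd1b, an ER protein that takes up cholesterol from the plasma membrane, was the lowest at -0.22 and Stard5, a soluble cholesterol carrier, the highest at 0.01. Gramd1b was at 197, 199 and 160 CPM in control mice and 151, 172 and 155 CPM in ELS mice. As with Osbpl3 and Osbpl6, Control 3 and ELS 1 were the low mice of their groups, and the groups overlapped. Among 14 other lipid transfer and tether genes, 12 were below 0 (52.5% of all genes tested), from -0.18 for the bridge-like transfer protein Vps13d to 0.05 for C2cd2l, a carrier of phosphatidylinositol to the plasma membrane.

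The 3 genes of phosphatidylserine synthesis and decarboxylation lay above 0, between 0.03 for the synthase Ptdss1 and 0.07 for the decarboxylase Pisd. Of the 3 GTPases of the R-Ras subfamily, Rras2 was at 16.2, 15.2 and 14.5 CPM in control mice and 17.99, 18.4 and 18.1 CPM in ELS mice. Every ELS mouse was above every control mouse (log2 fold change 0.25, SE 0.0857), and the difference did not pass the correction (adjusted p = 0.99998, edgeR). Mras was at 267, 274 and 263 CPM in control mice and 237, 249.3 and 252 CPM in ELS mice, with every ELS mouse below every control mouse (log2 fold change -0.12, adjusted p = 0.99998, edgeR).

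Of the 5 tested enzymes that make or clear oxysterols, Sult2b1, a sulfotransferase of cholesterol and oxysterols, was the lowest at -0.33 and Cyp46a1, which makes the main oxysterol of neurons, the highest at 0.02. Sult2b1 was at 8.06, 9.31 and 10.4 CPM in control mice and 8.46, 6.66 and 6.95 CPM in ELS mice, and the groups overlapped. Of the 10 oxysterol receptors, LXR target genes and sterol sensors, 4 were below 0. The lowest was Gpr183, an oxysterol receptor of immune cells, at -0.43, which rested on 40 to 56 counts a mouse, and the highest was Nr1h3, which encodes an LXR receptor, at 0.16. None of these genes passed the test.

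**Figure D5:**
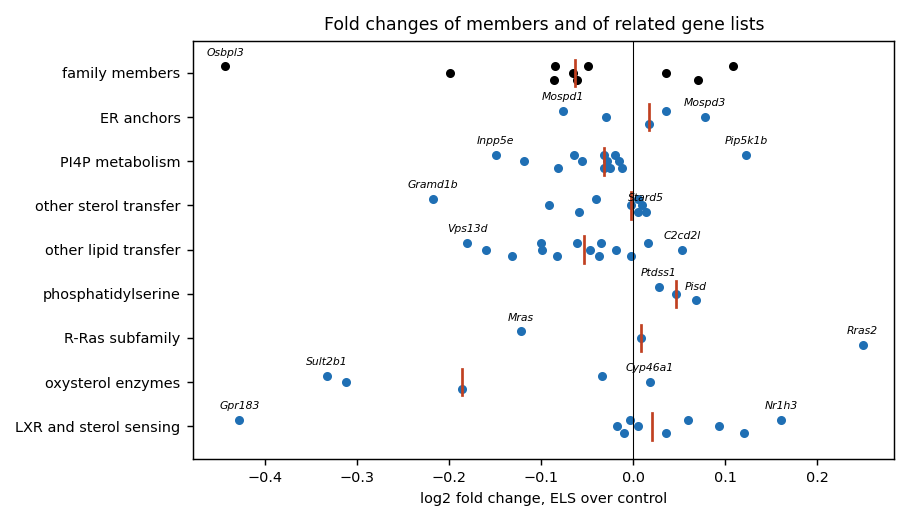
Log2 fold change of ELS over control (horizontal axis) for the 10 members (black) and for the tested genes of 8 related lists (blue), with a red bar at each median and the outermost genes named. Osbpl3 at -0.44 and Gpr183 at -0.43 are the lowest points, and the list medians lie near 0 except for the oxysterol enzymes at -0.19.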

How the data were processed

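RNA-seq of PFC from 6 mice was deposited by the authors as 1 table of raw counts per gene, not normalized. Per the study's methods and the submitters' processing notes, reads from stranded poly(A) mRNA libraries were trimmed, aligned to mm10 with STAR and counted with HTSeq (0.9.1 in the notes) from uniquely mapped reads. The sources disagree on the kit (TruSeq Stranded in the labels, KAPA Stranded in the methods) and on the STAR release (2.7.1a in the notes, an earlier one in the methods). The annotation release is not given in the sources used here. Since reads mapping to several places were dropped, stretches shared with other genes are undercounted.

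From the deposited counts, genes reaching 1 CPM in every mouse of either group were fitted in R 4.3.3 with edgeR 4.0.16 (TMM, quasi-likelihood test, condition only, Benjamini-Hochberg over 13185 genes), after the procedure was tested on simulated data. DESeq2 1.42.0 and limma 3.58.1 (voom) served as alternatives. Intervals cover 95%. Exon lengths came from GENCODE M21, whose symbols matched 89.2% of the 22000 in the table. All members matched. Of the symbols, 27 look like dates, and none of these is a member or a listed gene. Library totals are given above. They limit counting error only. ELS mice were caged singly, but whether the control mice shared 1 cage, and which mice shared a litter, is not given per sample, so p-values measure the spread between these mice. In each group, replicate libraries differed by more than sampling noise (lowest chi-square over its degrees of freedom, 6.25). The value was highest for Control 3, at 19.4 against Control 1 and 18.3 against Control 2, which had 6.72 between them.

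The members and the lists were chosen with earlier results of these data known. Named were all members, Osbp2 and Osbpl7, the lowest and highest log2 fold change of each list without a called gene, and the 5 genes with the highest r to Osbpl3. Vapa and Vapb were named after their values were seen.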

Additional observations from a re-analysis of the deposited data

How the results depend on the processing

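The number of members called was 0 in the main analysis, with limma-voom, DESeq2 size factors, upper-quartile factors, either other expression filter and the replicate block, and 1 (Osbpl3) with DESeq2, with edgeR's likelihood ratio test and with the striatal marker covariate, an alternative chosen after seeing the data. Leaving out 1 mouse gave 0 to 1 members called, the 1 being Osbpl3 without Control 3. The cause was not tested. Over all alternatives Osbpl3 kept its direction, with log2 fold changes of -0.51 to -0.38. This gene was chosen from the contrast and its groups did not overlap, so these fits were no test of its direction. Leaving out 1 mouse moved Osbpl9 between -0.010 and 0.15, below 0 without Control 2 (-0.010) or ELS 1 (-0.0035), and Osbpl11 between -0.070 and 0.12, below 0 without Control 3 (-0.0026) or ELS 3 (-0.070). The other 8 members kept their direction, but leaving out 1 mouse also moved Osbpl6 between -0.27 and -0.13, Osbpl5 between -0.17 and -0.04, Osbp between -0.09 and -0.02, Osbpl1a between -0.08 and -0.02 and Osbpl8 between -0.13 and -0.03 (outside the member list, Osbp2 between -0.26 and -0.11 and Osbpl7 between -0.16 and -0.05), and none of the genes of the related lists was called. With the longest transcript, 5 of 9 neighbour pairs kept their order, and leaving out 1 mouse kept 8 to 9. The summed family level (log2 ratio -0.0602) moved to -0.0496 without TMM factors and to -0.05002 without Osbpl3, and leaving out 1 mouse gave -0.0644 to -0.0559.

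Control and ELS mice carry the same replicate numbers. The correlations of the deviations of same-numbered mice were -0.119, 0.209 and -0.031. With so few mice in a group, these values cannot decide whether the numbers pair the mice. With the replicate block the count of all genes called went from 2 to 7, and 0 members were called. The count of all genes called also went to 18 with DESeq2, 28 with the likelihood ratio test, 32 with the striatal covariate and 4 without the expression filter, and leaving out 1 mouse gave 1 to 29 (29 without Control 3, 1 without any other).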
